A study of Rattus norvegicus with 4 samples.

Results

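The genes described here encode the machinery of DNA replication and of entry into S phase. Members were taken from a list of 38 genes. A member was represented by its brightest probe over the 4 arrays, and was kept where at least 2 arrays had that probe well above background. RefSeq accessions in the scanner files paired 33 of the 38 with a probe, and all 33 of these were kept, among 23155 features in the comparison. Mcm5, Chaf1a, Uhrf1, Dtl and E2f8 were not matched and are not analysed here. The cells were oligodendrocyte precursors (OPCs) of the rat, a proliferating glial population from which the myelin-forming oligodendrocytes arise. They were taken from cortex at postnatal day 2 and expanded for 3 days in bFGF and PDGF, 2 mitogens of these precursors. Both groups were then transfected at 50 nM with Lipofectamine RNAiMax, the miR-125a-3p group with a mimic of that microRNA (2 samples) and the miR-neg group with a negative control RNA (2 samples). Total RNA was collected 48 h later, and 100 ng of each was labelled with Cy3 for 1 single-colour Agilent array per sample. The labels give the cells as oligodendrocytes at 2 days in vitro, no strain and no untransfected group. They do not say whether the samples of a group came from separate animals or cultures, so every p-value below measures the spread between these samples, which may be technical.

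The mimic copies the mature strand below, given 5′ to 3′ from RefSeq (GRCr8, chr1:67350727-67350748, plus strand) because it is the agent that distinguishes the groups. Capitals mark the seed, bases 2 to 8, through which a microRNA recognises its targets.
rno-miR-125a-3p: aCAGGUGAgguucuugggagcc

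As background, replication begins when the origin recognition complex, with Cdc6 and Cdt1, loads rings of MCM proteins on DNA in G1, a step called licensing. In S phase Cdc45 and the GINS complex turn these rings into active helicases, and polymerases, the sliding clamp Pcna and its RFC loader copy the strands behind them, fed by enzymes that make deoxynucleotides. Most of these genes are transcribed at the boundary of G1 and S by E2F factors, so their RNA is widely used as a sign of cycling cells, and OPCs kept in mitogens are such cells. In bulk RNA, a change in the number of cells in S phase and a change in RNA per cell cannot be told apart.

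All values are log2 signals relative to the array's 75th percentile, so a value of 0 is the signal that 25% of probes exceeded, and levels of different probes cannot be set against each other. The arrays had 26332 to 28138 probes well above background and 0 saturated spots. All 4 lay on 1 slide and were scanned once. The groups occupied different positions along 1 axis of that slide, and an effect of position cannot be told apart from one of the mimic. Over all 23155 features, limma called 159 (0.687%) at an adjusted p of 0.05. Of these, 88 (0.38%) were higher and 71 (0.307%) lower after the mimic. All 8 OPC markers examined were well above background on all 4 arrays. Of these, 5 lay above 0, up to 0.18 (Olig1), and 3 below (Pdgfra -0.37, Sox10 -0.08, Olig2 -0.01), with a median of 0.06 and 0 past the threshold. Pdgfra had the widest difference of the 8, at 5.545 and 5.552 in miR-neg against 5.139 and 5.21 after the mimic. Its 95% interval was -0.59 to -0.16 (adjusted p = 0.125 in limma).

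The replication genes lay slightly higher after the mimic, together and by small amounts. Of the 33 kept members, 31 lay above 0, against 52.5% of all features, and the median difference (miR-125a-3p minus miR-neg) was 0.26, a ratio of 1.20, against a median of 0.01 over all features. Differences ran from -0.15 (Pole) to 0.84 (Tk1), and 24 of the 33 exceeded the upper quartile of all features, 0.16. In limma 0 members passed over all features, with adjusted p-values between 0.0634 and 0.935, while 16 had an unadjusted p under 0.05. All 16 were higher, a direction and threshold reached by 10.5% of all features, and 0 were lower, against 8.97%. Both miR-125a-3p arrays lay above both miR-neg arrays for 28 members (28.7% of all features), both lay below for 0 (24.1%), and the groups overlapped for the other 5, Cdt1, Cdc45, Pole, Rfc4 and Ccne1. The 16 and the 28 include Orc1, which passed the filter only through the miR-125a-3p group. Over the 32 members well above background on all 4 arrays these counts were 15 and 27. Counting separation takes no account of its width. The highest miR-neg and lowest miR-125a-3p values were 1.8438 and 1.8441 for Rfc5, which counted, and 3.3643 and 3.364 for Ccne1, which did not. For 22 members, Orc1 among them, the difference exceeded the gap between the arrays of either group. The same count was not made over all features, so it describes the members only.

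**Figure D1:**
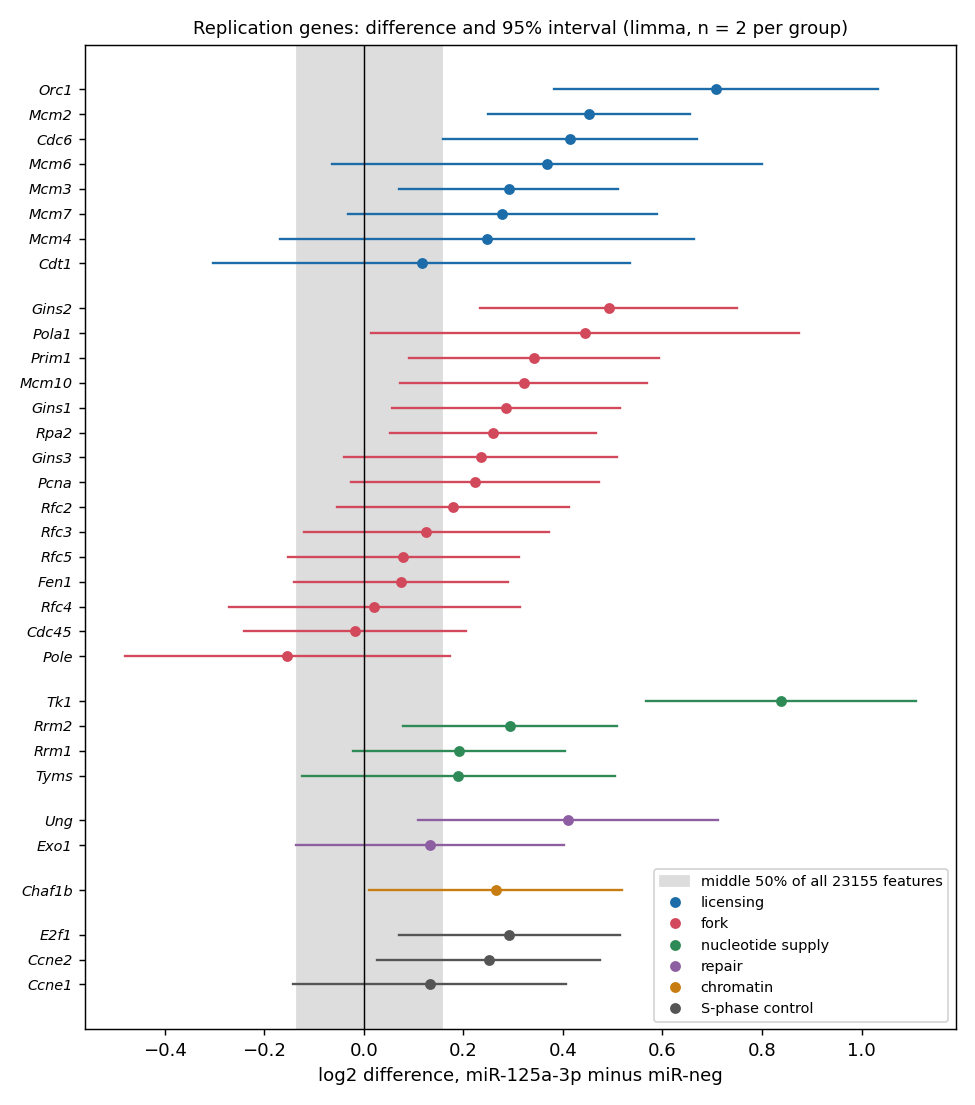
Each point is the log2 difference of 1 kept member, miR-125a-3p minus miR-neg, with its 95% interval from limma (n = 2 per group), grouped by role; the grey band holds the middle 50% of all 23155 features, from -0.14 to 0.16. Tk1 (0.84) stands highest among members measured in both groups. Orc1 (0.71, interval 0.38 to 1.03) was not well above background in miR-neg and was kept only through the miR-125a-3p group. Its miR-neg signals are upper limits, so its point is a lower limit only apart from the spread between arrays. Pole (-0.15) and Cdc45 (-0.02) lie below 0, and the 4 RFC genes fall between 0.02 and 0.18.

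The number of members past the test depended on the variance model, background correction, probe filter and threshold. With robust variances 0 members passed. With a variance trend on signal, 12 members passed (background 4.39% of features higher), Tk1, Mcm2, Mcm3, Cdc6, Mcm10, Gins1, Gins2, Prim1, Rpa2, Rrm2, Ung and E2f1. With normexp background correction 5 did, Tk1, Mcm2, Cdc6, Gins2 and Prim1 (background 3.3%). On probes above background on all 4 arrays, Tk1 alone passed (1.34%), and at a threshold of 0.1 Tk1 and Mcm2 passed (2.22%). Orc1 passed there too but was kept only through the group in which it was higher. All these calls were higher after the mimic.

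**Figure D2:**
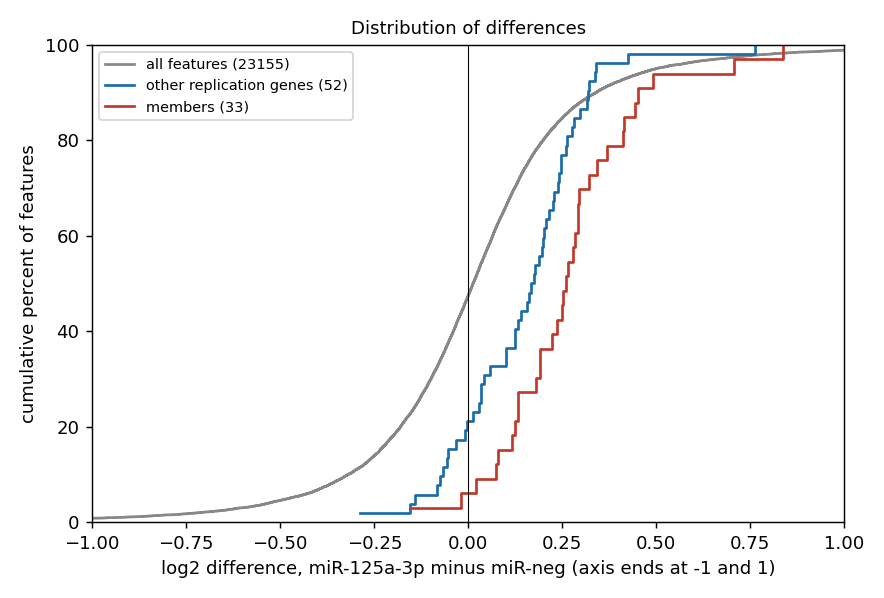
Cumulative percent of features (vertical axis) at or below each log2 difference, miR-125a-3p minus miR-neg (horizontal axis, shown from -1 to 1), for the 33 kept members, 52 other replication genes and all 23155 features. The members' curve lies to the right of all features through the middle of the range, with medians of 0.26, 0.17 and 0.01 for the 3 curves.

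Array by array, the shift was seen in each pairing of a miR-neg with a miR-125a-3p sample. The median member was higher on the miR-125a-3p array by 0.23 to 0.30 in the 4 such pairings, which share arrays, and 29 to 31 of the 33 members were higher there, against 50.7% to 53.9% of all features. Between the miR-neg arrays the median member differed by 0.07, with 23 of 33 higher on replicate 2, where 54.8% of all features were higher too. Between the miR-125a-3p arrays it differed by 0.01, with 21 of 33 higher on replicate 2, against 49.2% of all features.

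**Figure D3:**
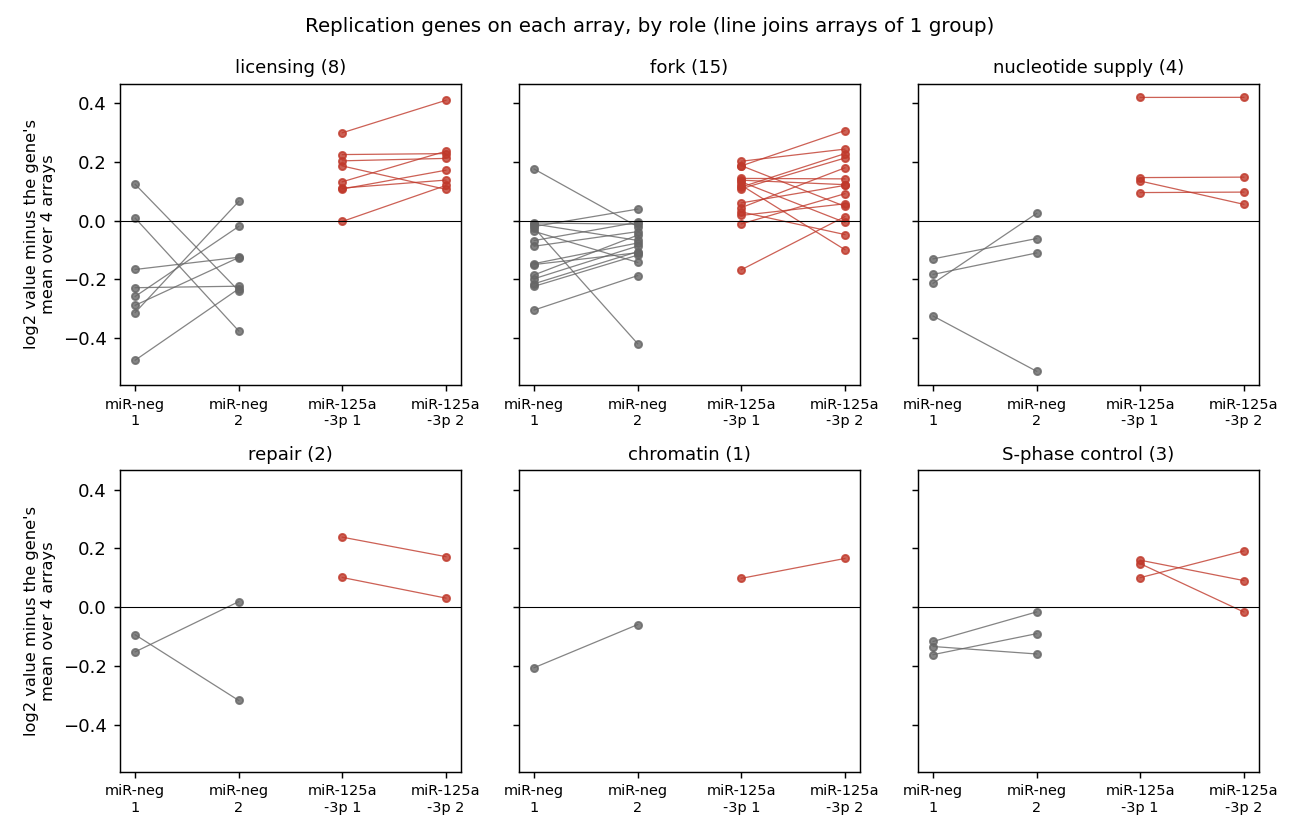
Log2 value of each kept member on each array, as the deviation from its own mean over the 4 arrays, in 6 panels by role with the number of members in brackets; grey is miR-neg, red is miR-125a-3p, and a line joins the 2 arrays of a group for 1 gene. In the nucleotide supply and repair panels both red points of each gene lie above both grey points, while Cdt1 among the licensing genes and Cdc45, Pole and Rfc4 among the fork genes overlap.

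All 7 licensing members measured in both groups lay above 0, with a median of 0.29 (0.33 with Orc1, which is described separately). Mcm2, a subunit of the MCM ring, read 3.65 and 3.66 in miR-neg and 4.11 on both miR-125a-3p arrays. The groups were far apart relative to either pair, and the difference of 0.45 (SE 0.07, 95% interval 0.25 to 0.65, adjusted p = 0.0925 in limma) was the second smallest p among members. Cdc6, which helps load that ring, stood at -0.88 and -0.72 against -0.39 and -0.38, a difference of 0.41 (SE 0.09, adjusted p = 0.14). Its miR-neg arrays were further from each other than its miR-125a-3p arrays, without overlap between groups.

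The other MCM genes lay in the same direction with wider spread. Mcm3 gave 2.50 and 2.54 in miR-neg and 2.85 and 2.77 after the mimic (difference 0.29, SE 0.08, adjusted p = 0.184). Mcm6 gave 0.70 and 0.32 against 0.83 and 0.93 (difference 0.37, SE 0.16, adjusted p = 0.311). In Mcm6 the gap of 0.38 between the miR-neg arrays was as large as the difference between groups. Mcm7 gave 3.92 and 4.16 against 4.28 and 4.35 (difference 0.28, adjusted p = 0.296), and Mcm4 gave 2.94 and 3.32 against 3.36 and 3.39 (difference 0.25, adjusted p = 0.444). For Mcm4 and Mcm7 the upper miR-neg array came close to the miR-125a-3p values. The 5 measured ring subunits thus spanned 0.25 to 0.45.

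Orc1 encodes a subunit of the origin recognition complex. Its signals were -5.73 and -5.48 in miR-neg, not well above background on either array, and -4.95 and -4.84 after the mimic, well above background on both. Orc1 therefore passed the filter through the group in which it was higher, so it had to differ (difference 0.71, SE 0.12, adjusted p = 0.0954). The 95% interval of its log2 difference ran from 0.38 to 1.03. Its miR-neg signals are upper limits on its level there, so the ratio of measured means, 1.63, is a lower limit apart from the spread between arrays. The lowest signal well above background on each miR-neg array lay under Orc1's own and did not alter that ratio. Over the 32 members well above background on all 4 arrays the median was 0.26 and 30 lay above 0. Cdt1, the licensing factor destroyed once S phase starts, read -1.79 and -2.15 against -1.91 and -1.79, and its groups overlapped (difference 0.12, SE 0.15, adjusted p = 0.725).

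Fork members were more mixed, with 13 of 15 above 0 and a median of 0.22. Among the helicase activators, Gins2 read -2.0 and -1.88 in miR-neg and -1.51 and -1.39 after the mimic, the widest difference of the fork group (0.49, SE 0.09, adjusted p = 0.111). Mcm10, which stabilises the helicase, gave 0.16 and 0.27 against 0.48 and 0.58 (difference 0.32, SE 0.09, adjusted p = 0.191). Gins1 gave 2.70 and 2.81 against 3.04 and 3.04 (difference 0.28, SE 0.08, adjusted p = 0.197). Gins3, in the same complex, had a difference of 0.23 (adjusted p = 0.309). Both miR-125a-3p arrays lay above both miR-neg arrays for these 3 GINS genes, as for 28.7% of all features. Gins4, of the same complex but outside the members, lay the other way, at 1.67 and 1.64 against 1.61 and 1.63. Its difference was -0.03 (adjusted p = 0.846). Cdc45, the partner of GINS in the helicase, read 3.24 and 3.30 against 3.29 and 3.21, so the groups overlapped. The Cdc45 difference was -0.02 (95% interval -0.24 to 0.20, adjusted p = 0.924).

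The primase and polymerase genes divided in the same way. Prim1, the catalytic primase subunit, read 2.65 and 2.75 against 2.99 and 3.1 (difference 0.34, SE 0.09, adjusted p = 0.177), and Pola1, the polymerase alpha subunit that extends its primers, read -2.21 and -2.60 against -1.98 and -1.94 (difference 0.44, SE 0.16, adjusted p = 0.248). The Pola1 miR-neg arrays differed by 0.39, close to the difference between groups. Pole, the catalytic subunit of the leading-strand polymerase, read -1.60 and -1.80 against -1.94 and -1.76, with overlapping groups (difference -0.15, SE 0.12, adjusted p = 0.536). Rpa2, a subunit of the protein that coats single strands, gave 2.42 and 2.46 against 2.71 and 2.69, a difference of 0.26 (SE 0.08, adjusted p = 0.195) with tight pairs in both groups.

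Clamp and clamp-loader genes had smaller differences. Pcna, the sliding clamp, had a difference of 0.22 (SE 0.09, adjusted p = 0.296). Of its loader, Rfc2 was at 0.18, Rfc3 at 0.13, Rfc5 at 0.08 and Rfc4 at 0.02, with adjusted p-values of at least 0.348. Rfc4 read 1.54 and 1.53 against 1.67 and 1.45, so 1 miR-125a-3p array lay on each side of the controls. Fen1, the nuclease that trims Okazaki fragments, was at 0.07 (95% interval -0.14 to 0.29, adjusted p = 0.654).

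Nucleotide supply held the largest difference of the whole set. Tk1, the thymidine salvage kinase whose level follows S phase, read 2.80 and 2.61 in miR-neg and 3.54 and 3.54 after the mimic. The miR-125a-3p arrays were nearly equal and far above either control, a difference of 0.84 (SE 0.10, 95% interval 0.57 to 1.11), or 1.79-fold, with the smallest adjusted p of any member (0.0634 in limma). Rrm2, the S-phase subunit of ribonucleotide reductase, gave 5.96 and 6.03 against 6.29 and 6.29 (difference 0.29, SE 0.08, adjusted p = 0.175). Rrm1, its large subunit, gave 4.35 and 4.42 against 4.57 and 4.57 (difference 0.19, SE 0.08, adjusted p = 0.293). The 2 reductase subunits thus lay in 1 direction without overlap. Tyms, thymidylate synthase, read -1.79 and -1.55 against -1.44 and -1.52, a difference of 0.19 (SE 0.11, adjusted p = 0.44) below the 0.24 between its miR-neg arrays.

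The remaining roles had few measured members. Of the repair pair, Ung, which removes uracil from DNA, read -0.74 and -0.96 against -0.41 and -0.47 (difference 0.41, SE 0.11, adjusted p = 0.177), and Exo1, a 5′ exonuclease of mismatch repair, had a difference of 0.13 (adjusted p = 0.521). Chaf1b, a subunit of the chromatin assembly factor that places histones on new DNA, gave 3.47 and 3.62 against 3.77 and 3.84 (difference 0.26, SE 0.09, adjusted p = 0.246). It was the 1 measured gene of its role group, and both its miR-125a-3p arrays lay above its controls. E2f1, the transcription factor that drives this programme, gave 0.92 and 0.89 against 1.15 and 1.24 (difference 0.29, SE 0.08, adjusted p = 0.186). Cyclin E partners CDK2 at the start of S phase, and of its genes Ccne2 gave 1.70 and 1.78 against 2.03 and 1.96 (difference 0.25, SE 0.08, adjusted p = 0.222). Ccne1 gave 3.26 and 3.36 against 3.53 and 3.36, groups that met at their edges (difference 0.13, adjusted p = 0.529).

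Side by side, the medians were 0.33 for licensing (8 genes), 0.22 for the fork (15), 0.24 for nucleotide supply (4), 0.27 for repair (2) and 0.25 for S-phase control (3). Without Orc1 the licensing median was 0.29, so part of its lead rested on a gene dim in the controls. These medians lie closer together than the members within a group, since the fork alone ran from -0.15 to 0.49, and no test between role groups was made.

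Of the kept members, 6 were represented by probes printed in 10 spots on each array, which gives a measure of the technical spread within an array. The SD over the 10 spots was 0.026 to 0.079, and the spots of 1 array share 1 sample, so they are not replicates of a condition. For Mcm2, Mcm3 and Rrm2 every spot on the miR-125a-3p arrays exceeded every spot on the miR-neg arrays. The lowest miR-125a-3p spot of Mcm2 was 3.99 and the highest miR-neg spot 3.77, and for Rrm2 these were 6.24 and 6.08. The Mcm7, Rrm1 and Fen1 spots overlapped. In Mcm7 the miR-neg arrays lay 0.24 apart, well beyond the largest spot SD of that gene (0.07).

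**Figure D4:**
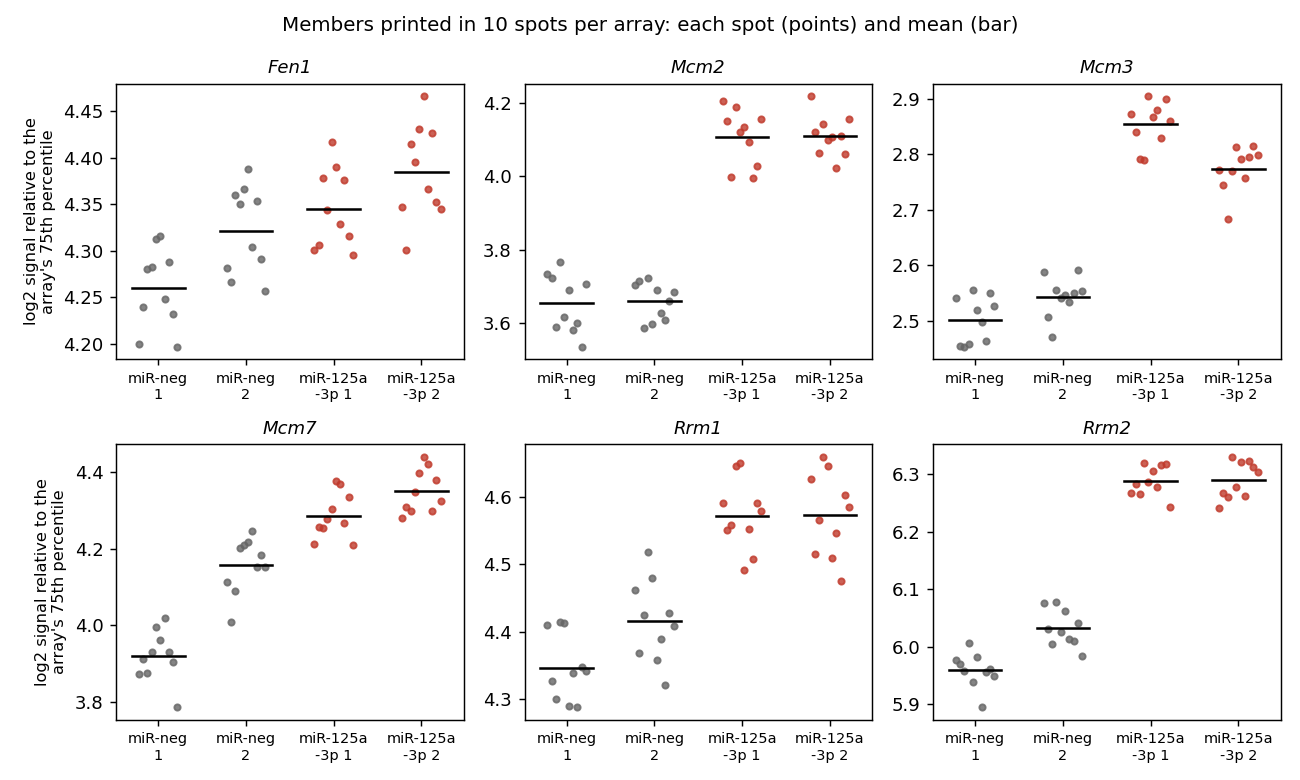
Each point is 1 spot, as log2 signal relative to the array's 75th percentile, for the 6 members printed 10 times per array, with a bar at the mean of each array; grey is miR-neg and red is miR-125a-3p, and vertical scales differ between panels and do not start at 0. Mcm2, Mcm3 and Rrm2 show 2 separate bands, Mcm7 shows miR-neg arrays 0.24 apart, and Fen1 differs by 0.07.

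Second probes gave a further look at 9 members. Of their 11 other probes, 9 passed the same filter, and 7 of those 9 lay on the same side of 0 as the probe tested. Tk1's second probe read -0.45 and -0.58 against 0.55 and 0.57, a difference of 1.08, larger than the 0.84 of the tested probe. Rrm2's second probe differed by 0.40, Mcm3's by 0.39 and Mcm2's by 0.32, next to 0.29, 0.29 and 0.45 for the probes tested. On Mcm3's second probe the groups overlapped, at -3.13 and -3.05 in miR-neg against -3.11 and -2.30, so its difference came mainly from 1 array. The second probe of Rrm1 differed by 0.08, next to 0.19, and its groups also overlapped. Those of Mcm4 gave 0.25 and -0.02, and those of Pole gave 0.28 and -0.07 next to -0.15, so the direction of Pole depended on the probe. The second probes of Gins2 and Exo1, well above background on 1 and 0 arrays, are not used here.

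Most of the promoters found for these genes held the core of an E2F site, which is known for many of them. RefSeq promoters (GRCr8, from 250 bases before to 50 after the start) were found for 31 of the 38 listed genes, 27 of them kept. They were searched on both strands for the core of the E2F site in 4 forms, with overlapping matches counted as 1 place. Its letters were TTCCCGC in the first form, TTGGCGC in the second form, TTCGCGC in the next one and TTGCCGC in the last one. The core was present in 20 of the 27 kept promoters (74.1%), against 10% of all 27457 promoters of that length and 12.2% of the 19005 protein-coding ones. In 19 of the 27 (70.4%) a match began within 50 bases of the start on either side, against 4.07% of all promoters. The CCAAT box was in 63% (37.7% of all promoters) and the CHR element (TTTGAA or TTCGAA), a motif of mitotic genes, in 22.2% (19.5%). Median GC content was 58.3% in the kept promoters and 52.3% in all promoters, and its part in these shares was not tested. Being E2F targets is a known property of many of these genes, so the shares describe the list and not the response to the mimic.

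Members with and without the core overlapped in their differences. The 20 kept members with the core had a median of 0.26 (range -0.15 to 0.45) and the 7 without it a median of 0.13 (range -0.02 to 0.84), and the sets were not tested against each other. The promoters of 4 members show this range, with the E2F core in capitals and the coding strand printed 5′ to 3′. They are Mcm2 (chr4:122918045-122918344, minus strand) and Mcm3 (chr9:30733697-30733996, minus strand), which carry the core at the start and whose spots separated the groups, Tk1 (chr10:103544728-103545027, minus strand), the largest difference, in whose window these letters do not occur, and Pole (chr12:52053613-52053912, minus strand), the lowest difference, which carries the core.
Mcm2: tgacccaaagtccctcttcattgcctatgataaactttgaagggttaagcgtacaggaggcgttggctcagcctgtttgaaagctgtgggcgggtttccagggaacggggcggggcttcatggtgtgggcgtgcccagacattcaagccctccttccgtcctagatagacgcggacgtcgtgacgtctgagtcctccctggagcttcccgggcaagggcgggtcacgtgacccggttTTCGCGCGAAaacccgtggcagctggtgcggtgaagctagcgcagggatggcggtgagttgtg
Mcm3: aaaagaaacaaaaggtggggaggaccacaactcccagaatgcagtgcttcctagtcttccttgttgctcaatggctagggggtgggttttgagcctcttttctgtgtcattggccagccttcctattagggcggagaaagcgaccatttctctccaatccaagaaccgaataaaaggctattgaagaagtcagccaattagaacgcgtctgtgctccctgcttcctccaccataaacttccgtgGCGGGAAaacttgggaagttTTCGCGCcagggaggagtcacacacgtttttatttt
Tk1: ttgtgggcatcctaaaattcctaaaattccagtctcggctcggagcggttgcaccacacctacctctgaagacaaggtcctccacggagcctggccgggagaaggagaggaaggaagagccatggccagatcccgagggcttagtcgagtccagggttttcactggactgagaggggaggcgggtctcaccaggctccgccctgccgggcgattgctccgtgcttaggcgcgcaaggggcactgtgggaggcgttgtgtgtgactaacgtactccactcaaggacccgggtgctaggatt
Pole: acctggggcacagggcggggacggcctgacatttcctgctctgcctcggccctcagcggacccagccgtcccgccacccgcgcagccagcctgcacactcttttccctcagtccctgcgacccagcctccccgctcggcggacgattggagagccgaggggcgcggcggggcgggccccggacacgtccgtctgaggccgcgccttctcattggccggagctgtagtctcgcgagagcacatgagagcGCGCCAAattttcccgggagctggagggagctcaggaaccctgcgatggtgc

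A wider list of 65 other genes of replication, nucleotide supply, chromatin assembly, post-replicative repair and S-phase control gave 52 measured genes. Of these, 41 lay above 0, against 52.5% of all features, with a median of 0.17. In limma 0 passed over all features, and 14 had an unadjusted p under 0.05, all higher, against 10.5% of all features. Pola2, the partner of Pola1, had the largest difference (0.76, SE 0.16, adjusted p = 0.131) with miR-neg at -3.84 and -3.77 and miR-125a-3p at -2.84 and -3.25. Both its miR-125a-3p arrays lay above its controls. The ligase that seals Okazaki fragments, Lig1, was at 0.32, the histone chaperone gene Asf1b at 0.31, the nucleotide-cleansing enzyme gene Dctpp1 at 0.34 and the clamp-loader gene Chtf18 at 0.28, with adjusted p-values from 0.149 to 0.187. With a variance trend 8 of the 52 passed (4.39% of all features were higher) and with normexp 2 (3.3%). Top1, the topoisomerase that relaxes DNA ahead of the fork, had the lowest difference of the 52 (-0.29); it was singled out after its values were seen.

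Of the markers of other cell types, 2 passed the threshold, Aldh1l1 of astrocytes, higher by 1.89 (adjusted p = 0.0333), and C1qa of microglia, higher by 1.44 (adjusted p = 0.0373). All 8 astrocyte markers lay above 0, against 52.5% of all features, from 0.04 (S100b) to 1.89, with a median of 0.49 and Gfap at 0.66. Their summed linear signal, in units of the 75th percentile, was 182 and 194 in miR-neg against 205 and 208, but 84.9% of it came from Aldoc, which differed by 0.10. Such sums weight each marker by the signal of its probe. They can be compared between arrays only and are not the level of a cell type. All 5 measured fibroblast and pericyte markers, of 7 listed, lay above 0 and 0 passed, with Col1a1 at 1.42. Their summed signal was 0.379 and 0.394 against 0.63 and 0.789. Pdgfrb was well above background on 2 arrays and Col3a1 on 3, with the lower signals of both in miR-neg. The filter may thus have kept Pdgfrb through the group in which it was higher. Lum and Dcn were well above background on 0 arrays. Microglial markers were divided, with 7 of 8 measured. Aif1 was at 1.56 and Tyrobp at 1.36, whereas Itgam was at 0.09, P2ry12 near 0, Cx3cr1 at -0.06 and Cd68 at -0.28, and the sums of 3.73 and 4.27 against 3.95 and 4.34 overlapped. All 6 mature oligodendrocyte markers lay below 0 and 0 passed, with a median of -0.64. They summed to 716 and 742 against 489 and 466, of which 69.6% came from Mbp (-0.64). OPC markers summed to 355 and 377 against 358 and 377. The neuronal (5 of 6 measured) and endothelial (3 of 5 measured) lists had medians of 0.05 and -0.01, and 0 of their markers passed. The part of these markers in the replication values was not tested.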

How the data were processed

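Total RNA of 4 samples was measured on single-colour arrays. The deposited intensities came from Agilent Feature Extraction 10.7.3.1 (submitters' processing notes), with local background removed and spatial trends corrected on each array, per the file headers. The deposited value table holds log2 values that equal the scanner values minus 1 constant per array for 100% of probes (tolerance 0.01, 75th percentile 0.004 to 0.007). How it was made is not given in the sources used here. Its column medians were -4.06, -4.14, -4.07 and -4.13.

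Control and outlier-flagged spots were left out, spots of a probe were averaged as log2, and each array's 75th percentile taken off. The filter kept 27250 of 45598 probes (at least 50% of spots well above background on at least 2 of 4 arrays), and the brightest stood for its gene. Probes carry accessions in the scanner files, and symbols came from matching these to a RefSeq GRCr8 table (46.3% of probes); 11676 features had a symbol. The group comparison used limma 3.58.1 (R 4.3.3), with two-sided p-values adjusted by Benjamini-Hochberg over 23155 features, since an exact permutation of 2 against 2 cannot give a p below 0.333. The fit was tested on simulated data. Precision is limited by the number of arrays. Members, role groups, lists and tests were chosen with earlier results of these data known. Values on every array were given for the 16 members of smallest p and for all licensing and nucleotide supply members, and the 6 other replication genes of smallest p were to be named, of which 1 is not reported here. Alternatives covered background correction, normalization, the dim-probe filter, probe choice, variance model, block and single arrays. Normexp used median spot signals and was chosen after seeing the data; the planned version on mean spot signals was not run.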

Additional observations from a re-analysis of the deposited data

How the results depend on the processing

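The median of the kept members stayed above 0 in all settings run, between 0.23 and 0.29 with 1 array left out, as did the medians of all 6 role groups. The number of members above 0 ranged from 30 to 32. With 1 array left out, 0 features, 0 members and 0 other replication genes passed (the spread of the single array left is taken from the other group), the fork median ran from 0.19 to 0.25, licensing from 0.32 to 0.42 and nucleotide supply from 0.21 to 0.32, and Cdc45 ran from -0.057 to 0.02, Cdt1 from -0.0652 to 0.30, Rfc4 from -0.0888 to 0.13 and the marker Olig2 from -0.0885 to 0.0591. The count of 159 features became 83 with quantile normalization, 0 without the dim-probe filter (3956 at an unadjusted p under 0.05), 613 on probes above background on all 4 arrays, 2048 with a variance trend, 1587 with normexp and 984 at a threshold of 0.1. Member counts became 1 on probes above background on all 4 arrays, 12 with the trend, 5 with normexp and 3 at 0.1, and other replication genes 8 with the trend and 2 with normexp. The licensing median was 0.29 on probes above background on all 4 arrays, where Orc1 drops out, and 0.29 with normexp, where repair was 0.23. The mean of probes turned Pole to 0.0174. With the replicate number as a block, which is also 1 slide axis, 0 features and 0 members passed, with 3968 features and 10 members at an unadjusted p under 0.05. Same-numbered arrays had deviations correlated at 0.0505, and 2 pairs cannot show whether the numbers pair the samples. The causes of these shifts were not tested. Dim signal limits Orc1 most.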
